A study of Mus musculus with 2 samples.

Results

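The genes of fatty acid uptake and beta-oxidation were described in adult male mouse gastrocnemius, a large muscle of the calf. The 35 genes were taken by symbol from a list that runs from lipoprotein lipase at the vessel wall to the electron carriers behind the acyl-CoA dehydrogenases. All 35 were found among 55536 annotated genes, and all 35 reached the mean of 10 counts needed for the test between animals. The study holds 1 group of 2 animals, replicate 1 and replicate 2, each aged 8 to 10 months and untreated as far as the labels say. Both were B6CASTF1/J, hybrids of the first generation from C57BL/6J and CAST/EiJ parents, so no group of another strain, age or treatment is available as a control. The labels number the animals apart and give them 1 shared donor identifier, and they do not say whether the muscles were taken at the same hour or after the same feeding.

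Fatty acids are freed from lipoproteins at the capillary wall, cross the fibre membrane and are carried through the cytosol by a binding protein. Acyl-CoA synthetases activate them, the carnitine shuttle takes them into mitochondria, and a cycle of dehydrogenation, hydration, a further dehydrogenation and thiolysis shortens them, with electrons passed on to the respiratory chain. Oxidative fibres are known to use this pathway more than fast glycolytic fibres, and the gastrocnemius of the mouse is mostly fast. Malonyl-CoA, made by acetyl-CoA carboxylase and removed by malonyl-CoA decarboxylase, inhibits entry at carnitine palmitoyltransferase 1.

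Ribosomal RNA-depleted total RNA was measured at a depth of 36792619 estimated gene counts in replicate 1 and 37752252 in replicate 2. A gene with 0 counts could have up to 3, or 0.0815 and 0.0795 CPM (counts scaled to library size), as far as counting error goes. Levels are TPM, the deposited abundance scaled for transcript length and library, and may be compared between genes. Values after ± are SDs over 2 animals. Defining markers of skeletal fibres were abundant, with Ckm, Acta1, Mylpf, Tnnt3, Ttn and Myh4 summing to 74442 TPM in replicate 1 and 79547 TPM in replicate 2. Markers of heart muscle were near 0, at a sum of 3.72 and 3.97 TPM for 6 genes, and those of liver at 2.16 and 2.94 TPM for 6 genes. Whole muscle was sequenced, so fewer cells of a type and less RNA per cell cannot be told apart.

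The members spanned a wide range of levels, and the enzymes of mitochondrial oxidation were among the more abundant nuclear genes. Their median was 55.8 TPM in replicate 1 and 49.95 TPM in replicate 2 (mean 52.9 ± 4.11). Together they held 2752 and 2452 TPM, which is 0.638% and 0.560% of all TPM of nuclear protein-coding genes. Of the 35, 10 averaged 100 TPM or more and 7 less than 10 TPM. Among 22015 nuclear protein-coding genes, 10 members ranked in the top 500 and 17 in the top 1000. In 17 neighbouring pairs of the order by mean TPM the ranges of the animals overlapped, so those neighbours were not separated beyond the spread between animals.

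**Figure D1:**
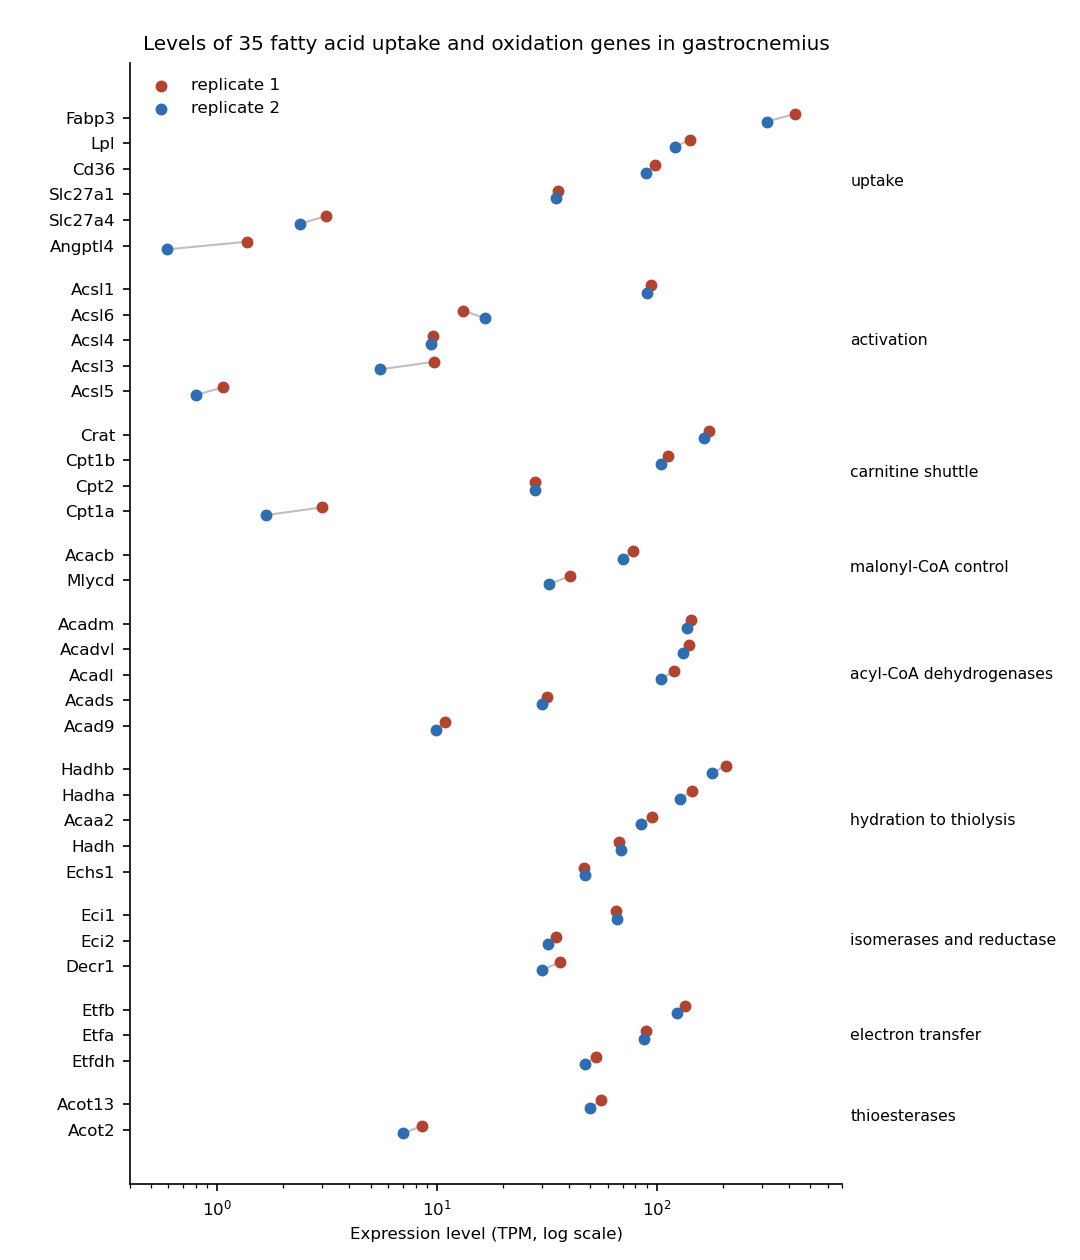
TPM of the 35 genes (log scale) in replicate 1 and replicate 2, grouped by role and ordered within a role by mean; points are single animals joined by a line. Fabp3 stands highest at 425 and 317 TPM, while Angptl4, Acsl5, Cpt1a and Slc27a4 lie under 4 TPM in both animals.

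Uptake was led by Fabp3 (ENSMUSG00000028773.8, chr4:130308595-130315463, mm10, plus strand), the cytosolic fatty acid binding protein of heart and skeletal muscle. Fabp3 had 425 TPM in replicate 1 and 317 TPM in replicate 2, rank 118 among nuclear protein-coding genes, and it alone held 15.4% and 12.9% of the members' summed TPM. The next uptake gene was Lpl, lipoprotein lipase, which frees fatty acids from triglyceride-rich lipoproteins, with 142 TPM in replicate 1 and 120.7 TPM in replicate 2. Fabp3 was therefore the highest of all 35 genes in both animals, above Hadhb. Cd36, a membrane receptor that takes up long-chain fatty acids, held 98.0 and 89.1 TPM. Slc27a1 and Slc27a4 encode fatty acid transport proteins that also activate their cargo, and held 35.5 and 34.9 TPM against 3.12 and 2.38 TPM. Slc27a1 thus supplied 91.9% and 93.6% of their sum. Angptl4, a secreted inhibitor of lipoprotein lipase, was low at 1.37 TPM in replicate 1 and 0.59 TPM in replicate 2.

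Lpl, Cd36, Angptl4 and Acsl1 are also expressed by fat and vessel cells. The fat marker list, which holds Adipoq, Plin1, Cfd, Lep, Retn, Cidec, Fabp4 and Lipe, summed to 85.0 TPM in replicate 1 and 101 TPM in replicate 2, and none of its 8 genes was at 0. The endothelial list summed to 59.0 and 65.9 TPM, again with none of 8 at 0. Both sums were lower in replicate 1, and Fabp4 alone held 55.7 and 64.0 TPM of the fat sum. The part of fat and vessel cells in the levels of these members was not tested.

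Among the 5 acyl-CoA synthetases, which join fatty acids to coenzyme A, Acsl1 (chr8:46471037-46536051, plus strand) dominated. Acsl1 had 94.3 TPM in replicate 1 and 90.8 TPM in replicate 2, or 73.7% of the summed synthetase TPM in each animal. Acsl6, best known from brain, followed at 13.2 and 16.6 TPM. The opposite-strand gene Gm12224 overlaps Acsl6 over 13111 bases and held 815 and 807 counts, against 943 and 1259 for Acsl6. Whether counting used strand is not given in the sources used here, so the split between Acsl6 and Gm12224 is uncertain. Acsl4, which prefers arachidonate, held 9.60 and 9.43 TPM. Acsl3, a synthetase of the reticulum and lipid droplets, held 9.70 TPM in replicate 1 and 5.50 TPM in replicate 2. Acsl5 was lowest with 1.06 and 0.80 TPM, from 85 and 94 counts, and shares 26430 bases with the opposite-strand gene Zdhhc6.

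Acsl1 is read from 2 main start sites 19929 bases apart on chromosome 8, and the windows before them are shown because the animals differed in how the transcripts divide between the sites. Each is the 250 bases before a start in RefSeq (GRCm38.p6, plus strand), at chr8:46470787-46471036 and chr8:46490716-46490965, 5′ to 3′, with GGGCGG on either strand in capitals.
Acsl1 upstream start: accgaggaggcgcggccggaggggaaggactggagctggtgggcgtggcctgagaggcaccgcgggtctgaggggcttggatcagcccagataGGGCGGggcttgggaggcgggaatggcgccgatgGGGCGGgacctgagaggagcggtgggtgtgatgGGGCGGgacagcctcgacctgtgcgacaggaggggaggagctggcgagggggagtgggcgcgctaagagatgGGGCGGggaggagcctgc
Acsl1 downstream start: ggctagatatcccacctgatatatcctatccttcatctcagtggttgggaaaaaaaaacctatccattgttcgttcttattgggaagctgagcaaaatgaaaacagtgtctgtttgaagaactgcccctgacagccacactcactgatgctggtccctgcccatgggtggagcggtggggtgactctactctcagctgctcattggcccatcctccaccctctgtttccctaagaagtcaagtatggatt
The upstream window holds 4 copies of GGGCGG and 72% G and C, and the downstream window 0 copies and 48.4% G and C. A match is a description of letters and not a binding site.

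Transcripts beginning within 200 bases of a site were grouped with it, and those of the upstream start carried most Acsl1 RNA. In the first transcript table they held 82.4% of the gene's TPM in replicate 1 and 73.7% in replicate 2, and those of the downstream start 17.1% and 25.8%. The second quantification, made from the same libraries, gave 69.9% and 62.2% for the upstream start and 26.3% and 37.3% for the downstream start. The downstream share was higher in replicate 2 in both, with no test of the difference. In the first table most of it lay on Acsl1-205, a transcript annotated with 368 bases and 3 exons, at 14.8% and 19.1%, with 2.27% and 6.71% on the longer Acsl1-203. The second quantification gave 17.7% and 19.8% to Acsl1-205 and 8.61% and 17.5% to Acsl1-203. Acsl1-201, of the upstream start, was dominant at 79.8% and 71.4% (75.6% ± 5.91), while the second quantification gave it 47.5% and 42.2%. There Acsl1-209, a 474-base noncoding transcript grouped with the upstream start, took 20.6% and 19.0%, against 0% in the first table. Acsl1-201 and the downstream Acsl1-203 have the same coding length of 2097 bases in the annotation and begin at different starts.

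**Figure D2:**
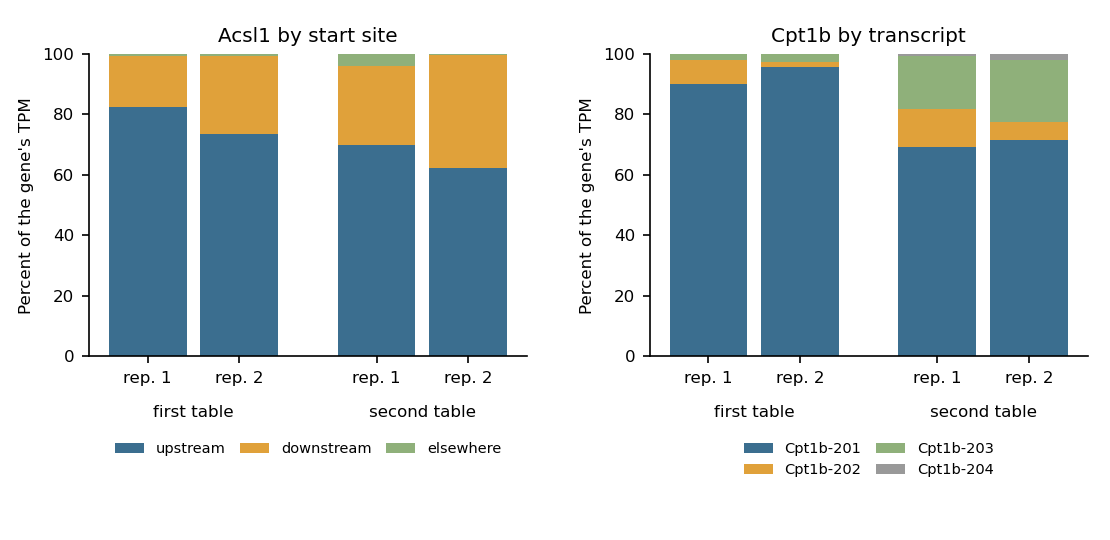
Percent of gene TPM on Acsl1 transcripts by start site (left) and on the 4 Cpt1b transcripts (right), for replicate 1 and replicate 2 in the first transcript table and in the second quantification; each bar is 1 animal. The downstream Acsl1 start took 17.1% and 25.8% in the first table and 26.3% and 37.3% in the second, and Cpt1b-201 led in all 4 bars.

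In the carnitine shuttle the muscle form of the entry enzyme prevailed. Cpt1b (chr15:89416405-89425863, minus strand), muscle carnitine palmitoyltransferase 1, had 113 TPM in replicate 1 and 105.04 TPM in replicate 2. Cpt1a (chr19:3322334-3385733, plus strand), the liver form, had 2.99 TPM in replicate 1 and 1.67 TPM in replicate 2. Cpt1b therefore made up 97.4% and 98.4% of the sum of both genes (97.9% ± 0.713). Cpt2, the partner enzyme of the inner membrane, held 27.8 TPM in both animals, and the log2 ratio of Cpt1b to Cpt2 TPM was 2.02 and 1.92. Crat, carnitine acetyltransferase, which buffers acetyl-CoA against acetylcarnitine, was the most abundant shuttle gene with 174 TPM in replicate 1 and 164 TPM in replicate 2.

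The Cpt1b value shares sequence with Gm44502, an overlapping coding gene on the same strand. Only 20.3% of the 31-base words of Cpt1b transcripts occur in no other gene, and 79.7% occur in Gm44502. The authors' tables assigned 94.1 and 17.7 counts to Gm44502, against 7259 and 8061 to Cpt1b. The full-length Cpt1b-201 held 90.05% and 95.6% of the gene's TPM (92.8% ± 3.90), and the retained-intron transcript Cpt1b-202 7.82% and 1.65%. The second quantification gave Cpt1b-201 69.2% and 71.6%, and placed 17.5% and 20.6% on Cpt1b-203, a 629-base transcript with only 2 exons. Cpt1b-201 was thus dominant by both methods, while its exact share was not settled by them.

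Both members that act on malonyl-CoA were well expressed. Acacb, acetyl-CoA carboxylase of the mitochondrial surface, had 78.2 TPM in replicate 1 and 70.3 TPM in replicate 2. Mlycd, malonyl-CoA decarboxylase, had 40.2 TPM in replicate 1 and 32.3 TPM in replicate 2. The log2 ratio of Acacb to Mlycd TPM was 0.96 in replicate 1 and 1.12 in replicate 2.

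The acyl-CoA dehydrogenases, which begin each turn of the cycle, differed in level. Acadm, for medium chains, had 143 TPM in replicate 1 and 138 TPM in replicate 2. Acadvl, for very long chains, had 139.7 TPM in replicate 1 and 131 TPM in replicate 2, a range overlapping that of Acadm. The second quantification placed Acadvl above Acadm, at 140.8 and 123.8 TPM against 117.6 and 102.7 TPM, so their order depends on the method. Acadl, for long chains, followed at 120.3 and 104.7 TPM, and these 3 genes held 90.4% and 90.3% of the summed TPM of the 5 dehydrogenases. Acads, for short chains, held 31.8 and 30.2 TPM, and Acad9, which also serves assembly of respiratory complex I, 10.9 and 9.95 TPM.

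The trifunctional protein genes led the later steps of the cycle. Hadhb, its thiolase subunit, had 207 TPM in replicate 1 and 178 TPM in replicate 2, second among the members. Hadha, its hydratase and dehydrogenase subunit, had 144 TPM in replicate 1 and 127 TPM in replicate 2. The log2 ratio of Hadha to Hadhb TPM was −0.52 and −0.49, so Hadha stood below its partner in both animals by this measure. In counts Hadha was the higher, at 9370 and 9580 against 8127 and 7969. The second quantification placed the genes closer, with Hadha at 149.6 and 137.4 TPM and Hadhb at 192.4 and 164.4 TPM. The 507-base retained-intron transcript Hadhb-208 held 50.2 and 41.6 TPM, or 69.1 and 56.4 TPM in the second quantification. How far the gap rests on that transcript was not tested. The soluble enzymes of shorter chains were lower, with the thiolase gene Acaa2 at 95.4 and 84.8 TPM, the dehydrogenase gene Hadh at 67.6 and 68.7 TPM and the hydratase gene Echs1 at 46.7 and 47.5 TPM. Of the words of Hadhb 76.7% were unique, and 19.5% recur in Gm13910.

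Hadha and Hadhb are transcribed away from each other, and the stretch between them is shown because their levels are compared as partners of 1 complex. Their RefSeq starts lie 273 bases apart on chromosome 5 (30154980 on the minus and 30155253 on the plus strand). The GENCODE annotation places the outermost starts closer, and the 85 bases between them, chr5:30155163-30155247 (sequence from the RefSeq table, GRCm38.p6, plus strand, 5′ to 3′), have GGGCGG on either strand in capitals.
Between Hadha and Hadhb: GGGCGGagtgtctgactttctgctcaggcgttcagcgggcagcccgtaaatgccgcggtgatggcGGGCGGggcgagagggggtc
This stretch holds 2 copies of GGGCGG and 69.4% G and C. The dominant Hadha transcript, Hadha-201, held 73.4% and 76.1% of Hadha TPM and is annotated with no coding sequence, while the coding Hadha-205 held 19.4% in each animal. Both have 20 exons, and the second quantification also placed Hadha-201 first at 62.5% and 60.1%.

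Auxiliary enzymes prepare unsaturated chains for the cycle. Eci1, an enoyl-CoA isomerase, had 65.5 TPM in replicate 1 and 65.8 TPM in replicate 2. The other isomerase gene Eci2 had 34.9 and 31.9 TPM, and Decr1, a dienoyl-CoA reductase, 36.3 and 30.2 TPM. Eci2 and Decr1 were not separated from each other beyond the spread between animals.

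Electrons leave the dehydrogenases through the flavoprotein of Etfa and Etfb and then through Etfdh, its oxidoreductase of the inner membrane. Etfb had 134 TPM in replicate 1 and 123 TPM in replicate 2. Etfa had 89.2 TPM in replicate 1 and 87.7 TPM in replicate 2, so the log2 ratio of Etfa to Etfb was −0.59 and −0.49. Only 50.1% of the words of Etfb are unique, since the overlapping same-strand gene Gm45233 holds most of the others. The tables gave Gm45233 0 and 8.29 counts, against 2408 and 2552 for Etfb. Etfdh held 53.0 and 47.3 TPM.

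The thioesterases, which release fatty acids from coenzyme A, differed in level. Acot13 had 55.8 TPM in replicate 1 and 49.95 TPM in replicate 2. Acot2, a mitochondrial enzyme, had 8.57 TPM in replicate 1 and 7.01 TPM in replicate 2. Of the words of Acot2 62.7% are unique and 29.9% recur in Acot1, so its counts of 452 and 419 may hold reads of that gene. Fabp3 likewise shares 35.2% of its words with the pseudogene Fabp3-ps1.

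Transcript use was compared in the 29 members with at least 2 transcripts and 5 TPM in both animals. In 27 of them replicate 1 and replicate 2 had the same leading transcript, and the exceptions were Hadhb and Slc27a1. The leading transcript was the same in the second quantification for 25 of 29, and another one for Eci1, Crat, Eci2 and Hadhb. The median share of the dominant transcript was 75.6%. For Hadhb the first table gave Hadhb-201 37.1% and 42.8%, whereas the second gave it 0.0242% and 0.105% and gave Hadhb-203 57.7% and 52.0%. These Hadhb transcripts have the same coding length of 1425 bases, and their starts are 30155248 and 30155272.

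Transcripts annotated with a retained intron took a sizeable part of some members. For Acadm they held 28.5% and 25.0% of TPM, and 22.8% and 12.9% in the second quantification. Hadhb had 24.9% and 23.5%, or 36.0% and 34.7% in the second. Acad9 had 26.3% and 22.1%, or 48.4% and 47.3%, and Slc27a1 24.8% and 27.7%, or 24.6% and 25.9%. Eci1 had 24.8% and 18.6%, or 34.1% and 28.9%. For some members the methods did not give the same picture, among them Cpt2 and Acadvl. Cpt2 had 19.6% and 20.2% in the first table, against 0% in replicate 1 and under 2% in replicate 2 in the second. Acadvl had 13.4% and 14.4% in the first table, against 37.0% and 32.1% in the second. Total RNA holds unspliced RNA as well as mature RNA, and these shares do not tell them apart.

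The animals were then compared gene by gene. Rounded counts of each gene entered an exact binomial test, two-sided and conditional on their sum, with Benjamini-Hochberg adjustment over all 14101 tested genes. A gene is described as called at an adjusted p under 0.05. The test compares these 2 libraries and not conditions. There is no replicate check of any difference, and a p-value here measures counting noise only, which leaves out the spread between animals. Ratios are log2, replicate 1 over replicate 2, relative to the trimmed mean scaling, whose effective library sizes were 35377140 and 39262750 counts. A gene with equal counts in both animals therefore has a positive ratio, of 0.15.

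Of the 35 members, 19 were called in favour of replicate 1, 1 in favour of replicate 2, and 15 were not called. The same test called 10.8% of all tested genes higher in replicate 1 and 10.7% higher in replicate 2. Calls follow counts as well as ratios, so the 27 members averaging at least 1000 counts were also set against genes of that depth. Of these 14 were called in favour of replicate 1 and 1 of replicate 2, where 21.1% and 19.4% of 3116 genes were called. Their median ratio was 0.07, against −0.00019 over those genes. With total counts 5 of the 27 were called in favour of replicate 1 and 9 of replicate 2, against 7.12% and 53.6% of the 3116 genes, and with spike-ins 23 and 0, against 66.7% and 4.72%. Across all members 28 ratios were positive and 7 negative, and the median was 0.11, against −0.0046 over all tested genes. In TPM 30 of 35 members were higher in replicate 1, with a median log2 ratio of 0.14 against 0.02 over 14068 genes.

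The scaling moves these counts. Over all tested genes the median was −0.12 with total counts and 0.15 with spike-ins, and the members' median 0.00062 and 0.26. The distance between the medians, 0.12 on the log2 scale, is not affected by a change of scaling. Calls in favour of replicate 1 held under all 3 scalings for 8 members, which were Fabp3, Lpl, Angptl4, Acsl3, Cpt1a, Mlycd, Hadhb and Decr1. A change of scaling shifts all ratios alike, so these 8 are simply the members called with total counts. With total counts 735 of 14101 tested genes were called in that direction. No member was called higher in replicate 2 under all 3, and with spike-ins 648 of the tested genes were. With an assumed biological coefficient of variation of 0.1 between animals, only Acsl3 was still called.

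**Figure D3:**
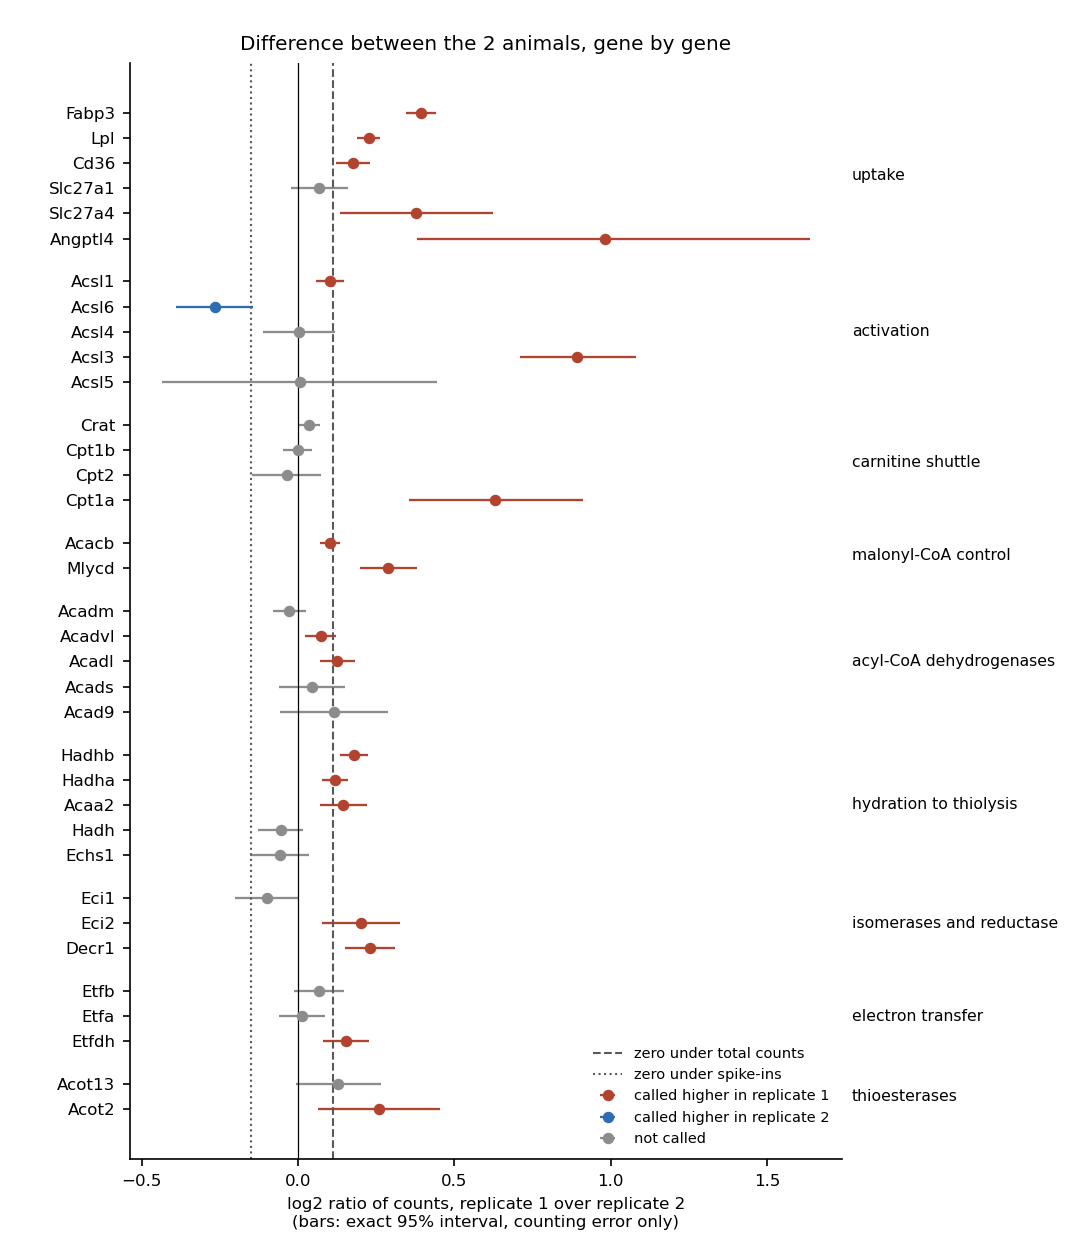
Log2 ratio of counts, replicate 1 over replicate 2, for each member with its exact 95% interval, which covers counting error only; the dashed and dotted lines mark where 0 would lie under total counts and spike-ins. Acsl3, Angptl4 and Cpt1a lie farthest to the right at 0.89, 0.98 and 0.63, and Acsl6 alone is called on the left at −0.27.

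Of the uptake genes 5 of 6 were called higher in replicate 1, where 10.8% of all tested genes were, and their median log2 ratio was 0.30. With total counts 3 of 6 were called, without Cd36 and Slc27a4, and the median was 0.19. That scaling called 735 of 14101 tested genes in this direction. Fabp3 had 7736 counts in replicate 1 and 6539 in replicate 2, a log2 ratio of 0.39 (95% interval 0.35 to 0.44, adjusted p = 3.4e-57 by the exact binomial test). Lpl had 12256 and 11630 counts and a ratio of 0.23 (0.19 to 0.26). Slc27a4 had a ratio of 0.38 from 302 and 258 counts, and Cd36 one of 0.18. Angptl4 had the largest ratio of all members at 0.98 (0.38 to 1.64, adjusted p = 0.0079 by the exact binomial test), but it rests on 63 and 35 counts. Most Angptl4 TPM lay on Angptl4-202, annotated for nonsense-mediated decay, at 1.30 TPM in replicate 1 and 0.46 TPM in replicate 2. The coding Angptl4-201 had only 0.06 and 0.13 TPM, so the ratio does not describe the coding transcript. Slc27a1 was the uptake gene not called, at 0.07.

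Among the synthetases Acsl3 (chr1:78657825-78707743, plus strand) stood out. Acsl3 had 643 counts in replicate 1 and 384 in replicate 2, a log2 ratio of 0.89 (0.71 to 1.08, adjusted p = 9.3e-21 by the exact binomial test). The ratio was 0.78 under total counts, 1.04 under spike-ins and 0.88 in the second quantification. The transcript Acsl3-205 had 5.02 TPM in replicate 1 and 1.87 TPM in replicate 2, while Acsl3-203 had 1.72 and 1.47 TPM and Acsl3-201 1.60 and 1.00 TPM. The second quantification gave Acsl3-205 4.04 and 1.19 TPM and Acsl3-203 1.78 and 1.72 TPM. The difference between animals thus lay mostly on Acsl3-205, whose coding length of 2160 bases equals that of Acsl3-201. Acsl3 shares 4.22% of its words with Utp14b, an overlapping gene on the same strand with 157 and 121 counts.

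The other synthetases had smaller ratios. Acsl1 was called at 0.10 (7553 and 7810 counts), and Acsl6 at −0.27, with 943 counts in replicate 1 and 1259 in replicate 2. Acsl4 and Acsl5 were not called, at 0.00 and 0.01.

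The carnitine shuttle had 1 call among 4 genes, in favour of replicate 1. In that direction 10.8% of all tested genes were called, and 21.1% of genes averaging at least 1000 counts. Cpt1a had 261 counts in replicate 1 and 187 in replicate 2, a log2 ratio of 0.63 (0.35 to 0.91, adjusted p = 5.9e-05 by the exact binomial test). Cpt1b had 7259 and 8061 counts and a ratio of −0.00082, with an interval from −0.05 to 0.05. Crat (0.04) and Cpt2 (−0.04) were not called either. The calls in this group rest on the scaling, except that of Cpt1a, which was called in favour of replicate 1 under all 3. With total counts Crat, Cpt1b and Cpt2 were called in favour of replicate 2, as were 53.6% of genes averaging at least 1000 counts. With spike-ins Crat and Cpt1b were called in favour of replicate 1, as were 66.7% of those genes.

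Mlycd and Acacb, which act in opposite directions on malonyl-CoA, were both called higher in replicate 1. Of all genes averaging at least 1000 counts 21.1% were called in that direction. Mlycd had 2059 counts in replicate 1 and 1870 in replicate 2, a ratio of 0.29 (0.20 to 0.38). Acacb had 16501 and 17065 counts and a ratio of 0.10 (0.07 to 0.13), which turned to −0.01 and was not called under total counts.

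Inside the mitochondrion the ratios were small. Of the 5 dehydrogenases Acadl (0.13) and Acadvl (0.07) were called, and Acadm (−0.03), Acads (0.05) and Acad9 (0.11) were not. Hadhb (0.18), Hadha (0.12) and Acaa2 (0.15) were called, whereas Hadh (−0.05) and Echs1 (−0.06) were not. Among the auxiliary enzymes Decr1 (0.23) and Eci2 (0.20) were called and Eci1 (−0.10) was not. Etfdh (0.15) was called, and its partners Etfa (0.01) and Etfb (0.07) were not. Of the thioesterases Acot2 (0.26, adjusted p = 0.040 by the exact binomial test) was called and Acot13 (0.13) was not. Of all genes averaging at least 1000 counts 21.1% were called in favour of replicate 1 and 19.4% of replicate 2. With total counts Hadhb kept its call (0.07), and Hadha (0.01) and Acaa2 (0.03) were not called. Hadh and Echs1 were then called in favour of replicate 2. That scaling called 53.6% of genes of this depth in favour of replicate 2 and 7.12% of replicate 1.

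**Figure D4:**
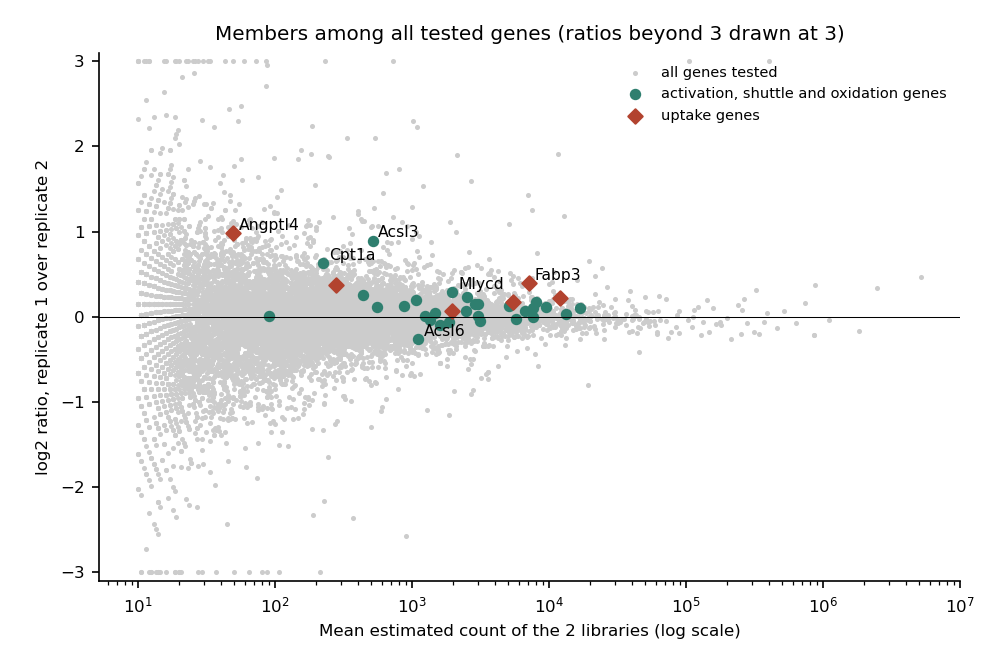
Log2 ratio, replicate 1 over replicate 2, against the mean estimated count (log scale) for all 14101 tested genes (grey), uptake genes (diamonds) and the other members (circles); ratios beyond 3 are drawn at 3. Most members lie close to 0 at 1000 counts or more, with Fabp3 at 0.39, while Acsl3, Cpt1a and Angptl4 reach 0.63 or more at fewer counts.

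Fibre markers differed between the animals too. All 8 slow fibre markers were called higher in replicate 1, with a median ratio of 0.59 and a summed level of 1644 TPM in replicate 1 and 1098 TPM in replicate 2. All 8 fast fibre markers were called higher in replicate 2, with a median of −0.17 and sums of 60796 and 66763 TPM. The test called 10.8% of all tested genes higher in replicate 1 and 10.7% higher in replicate 2. Among genes averaging at least 1000 counts the shares were 21.1% and 19.4%. Fast markers are abundant, so even ratios of −0.04 (Myh1 and Atp2a1) were called. The fast median became −0.02 under spike-ins. Adipocyte and endothelial markers had medians of −0.31 and −0.26, with 5 of 8 called higher in replicate 2 in each list, and 0 called higher in replicate 1. Their part in the members' ratios was not tested.

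Among 49 other genes of fatty acid and ketone metabolism, 44 reached 10 counts on average. Of these, 6 were called in favour of replicate 1, 5 in favour of replicate 2, and 33 were not called. Over all tested genes 10.8% and 10.7% were called in these directions, and the counts of this list lie near those shares. Their median ratio was 0.03. Pdk4, a kinase that restrains pyruvate oxidation when fatty acids are used, had 302 TPM in replicate 1 and 76.7 TPM in replicate 2, a ratio of 1.92. Ucp3, an uncoupling protein of the inner mitochondrial membrane, had 44.4 TPM in replicate 1 and 20.1 TPM in replicate 2, a ratio of 1.11. Hacl1, of peroxisomal alpha-oxidation, and the thioesterase gene Acot11 lay on the other side at −0.69 and −0.54. Bdh1 (0.32), Acss1 (0.25), Acaca (0.19) and Abcd3 (0.17) were also called higher in replicate 1, and Fabp4 (−0.22), Abcd2 (−0.18) and Vldlr (−0.11) higher in replicate 2. The other abundant genes of this list, Oxct1 at 96.3 and 105 TPM, Phyh at 82.5 and 81.4 TPM and Scp2 at 72.7 and 67.04 TPM, were not called.

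Promoter windows in RefSeq (GRCm38.p6), from 250 bases before to 50 after a start, were found for 27 members in 32 windows. Not found in that table were Crat, Acot13, Lpl, Acad9, Cpt1b, Acaa2, Angptl4 and Decr1. The members' windows had a median of 60.7% G and C, against 52.7% over all 32851 windows. GGGCGG, on either strand, occurred in 22 of 32 members' windows (68.8%), which belong to 19 members, and in 35.7% of all windows, and the part of G and C content in this was not tested. These windows are not all separate. Those of Hadha and Hadhb share 228 of their 300 bases, so a copy there counts for both, and 3 members have 2 windows or more. TATAAA occurred in 1 of the members' windows, that of Acacb, and in 13.6% of all windows. The direct repeat read by PPAR-RXR, AGGTCA followed by any base and AGGTCA, occurred in 0 members' windows and 0.0396% of all. The ERR element, a T, any base and AAGGTCA, occurred in 1, for Acsl6, and in 1.28% of all windows, and the NRF1 motif, GCGC, AT and GCGC in a row, in 1, for Etfdh, and in 0.971%. The absence of a match says only that these letters are not in the window. The windows do not always lie at the most used start. That of Acacb lies at the start of Acacb-201 (114165518). Acacb-201 held 0% of Acacb TPM in both animals, or 23.96% and 11.7% in the second quantification. Acacb-202, which starts at 114146535, held 95.2% in replicate 1 and 97.6% in replicate 2. The matched Acsl6 window has its start at 54303824, and Acsl6-205, with 60.6% and 58.5%, at 54319856. For Cd36 these starts are 17835896 and 17888747 (Cd36-203, 54.2% and 49.8%).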

How the data were processed

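Total RNA of gastrocnemius from 2 male mice was sequenced in 1 library each, from 300 ng of RNA with a directional kit and an ERCC spike-in mix, per the labels. Reads per gene and per transcript were estimated by the authors and deposited in the form of expected counts, not normalized, and the deposited TPM values are scaled by effective length over all entries. The deposited percent column gives each transcript's share of its gene. Column names are those of RSEM and, for the second transcript table, kallisto, per the file headers, and mm10 with GENCODE M21 is named in the deposited notes. The aligner, versions and strand setting are not given in the sources used here, nor was either parental allele separated.

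Library sizes were scaled with edgeR 4.0.16 (R 4.3.3), and expected counts were rounded. Ratios used a prior of 1 count and intervals are exact (Clopper-Pearson, 95%). Genes averaging at least 10 counts entered the test. Entries that are no gene (96 spike-ins and 26248 others with numeric identifiers, at 0 counts, among them) stayed out. A word is a 31-base stretch of an annotated transcript. The exact tests ran in scipy 1.17.1 under Python 3.11.15, tables were handled with pandas 2.3.3 and plots drawn with matplotlib 3.10.9. The test was tested on simulated data. DESeq2 1.42.0 size factors, total counts, spike-ins, other count minimums, a prior of 5, edgeR's exact test and the second quantification were alternatives. All 35 members are named, the other pathway genes by 4 highest TPM, 4 largest ratios at a mean of 100 or more counts. The other called genes of that list (Bdh1, Acss1, Acaca, Abcd3, Fabp4, Abcd2 and Vldlr) lie outside this rule and were named after their values were seen. Members and lists were chosen with earlier results of these data known. The GGGCGG and TATAAA searches and the comparison at 1000 counts were added after values were seen.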

Additional observations from a re-analysis of the deposited data

How the results depend on the processing

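With total counts, members called higher in replicate 1 were 8 (19 under the main scaling) and in replicate 2 were 9 (1), all tested genes 735 (1529) and 3628 (1514), and other pathway genes 3 (6) and 11 (5). With spike-ins they were 30 and 0, 4370 and 648, and 20 and 2. With an assumed variation of 0.1 they were 1 and 0, 156 and 135, and 2 and 0. The members' median log2 ratio was 0.00062 with total counts and 0.26 with spike-ins. Total counts turned 10 of the 28 positive ratios negative, those of Crat (−0.077), Acadvl (−0.041), Acsl1 (−0.011), Etfa (−0.101), Etfb (−0.047), Acacb (−0.011), Slc27a1 (−0.045), Acads (−0.068), Acsl4 (−0.110) and Acsl5 (−0.106). Spike-ins turned 6 of the 7 negative ratios positive, those of Acadm (0.122), Cpt1b (0.149), Hadh (0.095), Eci1 (0.049), Echs1 (0.091) and Cpt2 (0.113), and Acsl6 stayed negative (−0.117). The shift follows from the scaling itself.

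TPM rescaled over nuclear protein-coding genes raised the members' median TPM to 121.7, since other RNA is left out of the total. The second quantification moved the mean TPM of many members by at least the SD over animals, as for Acadm from 140.5 to 110.2. It gave Acsl1-201 44.8% and Cpt1b-201 70.4%, and the cause was not tested. The members' counts of calls stayed within 1.5 times under DESeq2 size factors, other count minimums and the second quantification. Leaving out each animal gave median TPM of 49.95 to 55.8, Cpt1b shares of 97.4% to 98.4%, Acsl1-201 shares of 71.4% to 79.8% and Cpt1b-201 shares of 90.05% to 95.6%. No paired analysis was possible because the study holds 1 group. With 2 animals, 1 library each decides every difference, and depth limits Angptl4 and Acsl5 most.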
